A study of Mus musculus with 5 samples.

Results

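The genes described here are those of the iron hormone hepcidin and of the bone morphogenetic protein (BMP)-SMAD pathway that controls it in liver. They were taken by name, with earlier results of these data known. They are the 10 rows of the deposited table whose gene symbol is *Hamp*, *Hamp2*, *Bmp6*, *Bmp2*, *Hfe2* (the older symbol of *Hjv*), *Tmprss6*, *Id1*, *Smad6*, *Smad7* or *Atoh8*. All 10 were found, among 23793 genes in all. RNA of livers was sequenced from 2 *Lifr* fl/fl mice, called controls here, and from 3 *Lifr* fl/fl;Alb-Cre mice (Lifrfl/fl;Crealb/alb in the sample labels), called knockouts here. All 5 mice were 12 weeks old (3 months in the methods), of strain C57BL/6, untreated as far as the labels say, and male according to the reporting summary. Both groups carry *Lifr* alleles with exon 4 between LoxP sites, and Cre in the knockouts is driven by the albumin promoter, which is active in hepatocytes. Cre alone, without the floxed allele, was not in the design, so what Cre does and what the loss of *Lifr* does cannot be told apart.

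Hepcidin is a peptide that hepatocytes secrete into blood, where it binds the iron exporter ferroportin and causes its breakdown, so that less iron leaves gut cells, macrophages and hepatocytes. Endothelial cells of the liver sinusoids make the ligands BMP6 and BMP2, which act on receptors of hepatocytes together with the co-receptor hemojuvelin. The receptors then phosphorylate SMAD proteins, which raise transcription of *Hamp* and of a set of shared target genes, some of which brake the pathway. A separate route from interleukin 6 (IL-6) through the shared receptor chain gp130 and STAT3 raises *Hamp* in inflammation, and the leukemia inhibitory factor receptor encoded by *Lifr* also signals with gp130.

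*Hamp* and *Hamp2*, the mouse genes that encode hepcidins, lie beside each other on chromosome 7, and the stretch before each start site is shown because the sites that both routes use lie there. The sequences are the 250 bases upstream of the RefSeq transcription start in GRCm38.p6, on the minus strand, at chr7:30944030-30944279 for *Hamp* and chr7:30924182-30924431 for *Hamp2*. Capitals mark the BMP response element GGCGCC, or the bases of *Hamp2* aligned with it, and the STAT site TTCTTGGAA, in this order.
Hamp: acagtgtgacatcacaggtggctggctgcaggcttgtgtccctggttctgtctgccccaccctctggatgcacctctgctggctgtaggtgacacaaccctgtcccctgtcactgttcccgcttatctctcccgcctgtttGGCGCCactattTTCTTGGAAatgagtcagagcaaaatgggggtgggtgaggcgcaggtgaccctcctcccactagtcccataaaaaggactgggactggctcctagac
Hamp2: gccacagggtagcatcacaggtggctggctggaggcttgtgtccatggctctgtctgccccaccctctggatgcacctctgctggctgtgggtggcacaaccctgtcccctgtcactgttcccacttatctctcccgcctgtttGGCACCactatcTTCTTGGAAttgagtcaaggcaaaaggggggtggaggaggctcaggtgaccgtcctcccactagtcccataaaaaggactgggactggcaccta

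The 2 stretches are identical at 227 of 247 aligned bases (91.9%), with 20 substitutions and 6 unaligned bases. The STAT site is intact in both, at -97 to -89 from the start site of *Hamp* and at -94 to -86 from that of *Hamp2*. The BMP response element lies at -109 to -104 in *Hamp*, and the aligned bases of *Hamp2* carry 1 substitution, G145A, counted from 1 at the 5′ end of the *Hamp* stretch. Both motifs were searched on both strands, and GGCGCC is its own reverse complement. Of 32851 upstream stretches of the same length in the table of RefSeq promoters, 9.59% hold GGCGCC and 0.365% hold TTCTTGGAA. A match is a description and not a binding site. The table holds 5 of the 10 members, and the stretches of the other matched members, *Bmp6*, *Smad6* and *Atoh8*, hold neither motif. The transcripts of both genes are alike as well, with 388 of 410 aligned bases identical (94.6%), and 16.6% of the 361 windows of 50 bases in the *Hamp* transcript also occur unchanged in that of *Hamp2*. The authors kept only uniquely mapped reads, so fragments from the shared stretches can be lost or assigned to the wrong gene. The windows count exact matches only and set no bound on this, so the single levels of *Hamp* and *Hamp2* are uncertain.

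Levels are given as FPKM, a gene's sequenced fragments corrected for transcript length and library size, as the authors estimated them. The deposited table sorts each gene's values as text within a group (15586 of 15586 genes with distinct values), so a column does not belong to 1 mouse. Which mouse had the highest *Hamp* and whether it also had the highest *Hamp2* can therefore not be read, and no correlation across mice was computed. *Lifr* itself was at 132 and 151 FPKM in controls and at 32.8, 44.3 and 54.8 FPKM in knockouts, a log2 difference of -1.71 (standard error 0.19, adjusted p = 0.00447 from limma). *Lifr* did not pass when genes below the minimum were kept in the fit (adjusted p = 0.0623 from limma) or without 1 control value (adjusted p = 0.239 and 0.335 from limma). Hepatocyte genes were abundant, as the tissue label implies, and *Apoa2* and *Apoa1*, which encode apolipoproteins, were between 5774 and 10432 FPKM in every library. The transferrin gene *Trf* is listed at 0 in all 5 libraries, and this zero is not read as an absence of expression. Groups were compared with limma on log2(FPKM + 0.1) over the 11687 genes that averaged 0.5 FPKM or more, all 10 members among them, and p-values were adjusted over all of these by the Benjamini-Hochberg method.

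*Hamp* (XLOC_019402, chr7:30942368-30944029) was by far the most abundant of the 10 mRNAs. Its level was 1096 and 1425 FPKM in the 2 control livers and 244, 370 and 974 FPKM in the 3 knockout livers. All 3 knockout values lay below both control values, but the highest of them was close to the lower control. The means were 1260.2 ± 233 FPKM (SD, n = 2) and 529 ± 390 FPKM (SD, n = 3). The log2 difference, knockout minus control, was -1.49 (standard error 0.45, 95% interval -2.50 to -0.49), which is 0.356 of the control level with an interval of 0.177 to 0.714. The unadjusted p was 0.0081 and the adjusted p was 0.267 from limma, so *Hamp* did not pass. The knockout values spanned 4.0-fold from lowest to highest, against 1.30-fold in controls. Their SD on the log2 scale was 1.03, where the median gene had 0.15 and 0.531% of all tested genes had one at least as large. Without the highest knockout value of *Hamp* the log2 difference was -2.06 and passed (adjusted p = 0.00485 from limma), and without the other values in turn it lay between -1.68 and -1.06 and did not pass. Leaving out the highest knockout value enlarges a decrease by construction, so this pass is not read as support. With 2 mice against 3 there are 10 arrangements. An exact two-sided permutation test therefore gives *Hamp* p = 0.2, the smallest p it can give, and no single gene can reach the threshold by it.

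*Hamp2* (XLOC_019401, chr7:30922372-30924181), the neighbouring copy, was expressed at a far lower level. It was at 36.6 and 37.6 FPKM in controls and at 13.1, 18.0 and 31.6 FPKM in knockouts. The pattern was that of *Hamp*, with 3 knockout values below both controls, 1 of them not far below, and a wider spread in knockouts (2.41-fold from lowest to highest) than in controls (1.03-fold). The log2 difference of *Hamp2* was -0.92 (standard error 0.29, 95% interval -1.56 to -0.28, unadjusted p = 0.00991, adjusted p = 0.294 from limma), and it did not pass. Without its highest knockout value, a step that enlarges a decrease by construction, it was -1.26 and passed (adjusted p = 0.0179 from limma). The mean FPKM of *Hamp* was 34.0 times that of *Hamp2* in controls and 25.3 times in knockouts. Whether this ratio differed could not be tested, because no value of *Hamp* can be paired with a value of *Hamp2* from the same mouse. As the 2 transcripts are alike, part of the *Hamp2* level may come from misassigned *Hamp* fragments, and this was not tested.

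**Figure D1:**
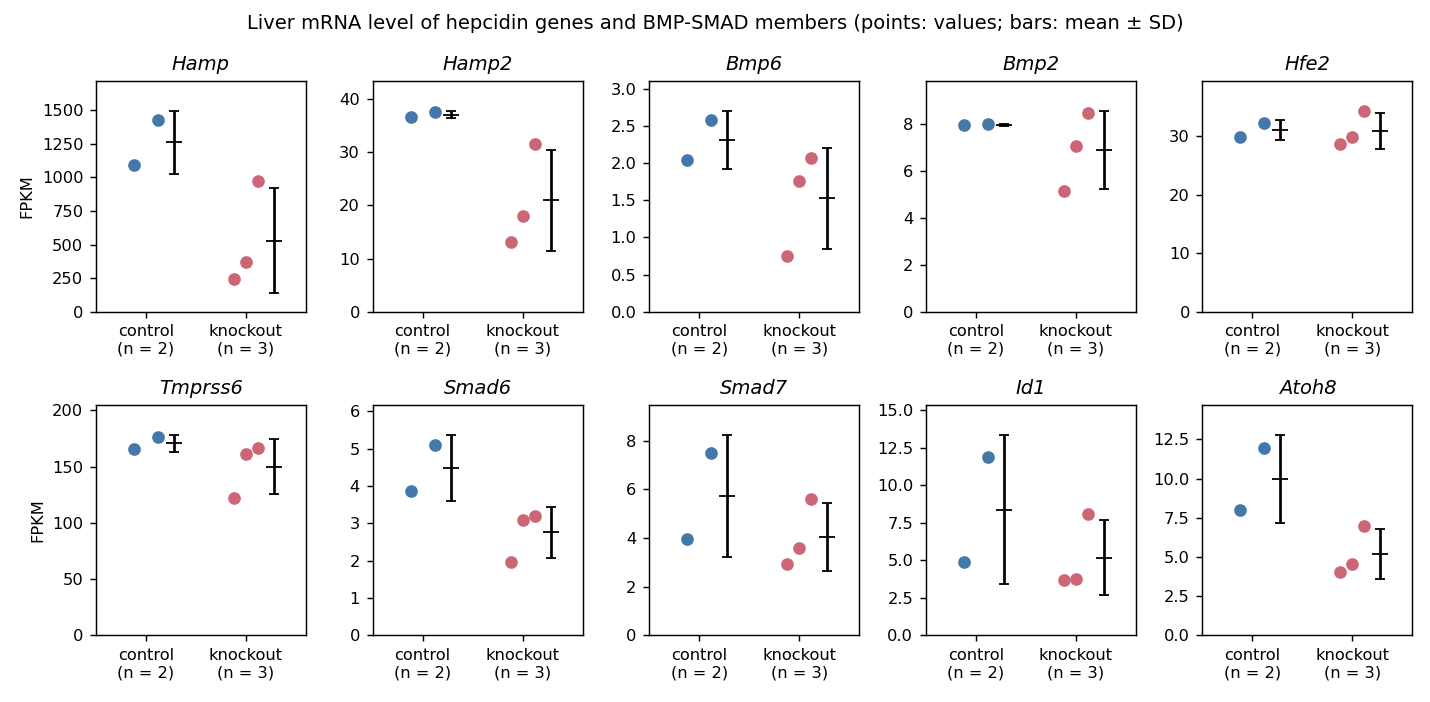
FPKM (vertical axes, each from 0) of the 10 genes in 2 control and 3 knockout livers. Points are single values, drawn in ascending order because the table does not tie them to mice, and black bars are the mean and SD. The 3 knockout values of *Hamp*, *Hamp2*, *Smad6* and *Atoh8* lie below both control values, and those of the other 6 genes overlap with the controls.

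Of the ligands, *Bmp6* (XLOC_005168, chr13:38345716-38500314), whose product is the main BMP that responds to liver iron, was at 2.04 and 2.59 FPKM in controls and at 0.754, 1.76 and 2.06 FPKM in knockouts. The highest knockout value overlapped with the lower control, and the log2 difference was -0.67 (95% interval -1.44 to 0.10, adjusted p = 0.588 from limma). It was -0.26 without its lowest knockout value and -0.43 with a pseudocount of 1 FPKM. *Bmp2* (XLOC_011552, chr2:133552159-133562896), the other endothelial ligand, was at 7.93 and 7.97 FPKM in controls and at 5.14, 7.04 and 8.44 FPKM in knockouts. Its knockout values lay on both sides of the controls, and the log2 difference was -0.24 (95% interval -0.66 to 0.19, adjusted p = 0.726 from limma). Neither ligand passed, and a decrease of *Bmp6* to 0.369 of the control level or no change at all lies within its interval.

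Hemojuvelin and the protease that removes it are made by hepatocytes, and their mRNAs differed little. *Hfe2* (XLOC_013187, chr3:96525163-96529216), which encodes hemojuvelin, was at 29.8 and 32.2 FPKM in controls and at 28.5, 29.8 and 34.2 FPKM in knockouts. The groups overlapped, and the log2 difference of -0.01 had an interval of -0.29 to 0.27 (adjusted p = 0.979 from limma). Its sign changed when single values were left out. *Tmprss6* (XLOC_007383, chr15:78439667-78468648) encodes matriptase-2, a membrane protease that cleaves hemojuvelin and so lowers *Hamp*. It was at 165 and 176 FPKM in controls and at 122, 161 and 167 FPKM in knockouts. The lower 2 knockout values were below both controls, the second of them narrowly, and the log2 difference was -0.20 (95% interval -0.54 to 0.14, adjusted p = 0.716 from limma). The intervals leave room for a level of *Hfe2* between 0.816 and 1.21 of the control level and of *Tmprss6* between 0.685 and 1.10 of it.

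The 4 target genes that BMP-SMAD signaling induces in hepatocytes had lower means in knockouts, and 2 of them had groups that did not overlap. *Atoh8* (XLOC_017642, chr6:72206174-72235780), which encodes a transcription factor of the basic helix-loop-helix family, was at 7.99 and 12.0 FPKM in controls and at 4.03, 4.57 and 7.0 FPKM in knockouts. Its log2 difference was -0.94 (standard error 0.24, 95% interval -1.47 to -0.40), and it had the smallest p of the 10 members (unadjusted p = 0.00301, adjusted p = 0.18 from limma). All of its knockout values were below both controls.

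*Smad6* (XLOC_022370, chr9:63953076-64022085) encodes an inhibitory SMAD that feeds back on BMP receptors. It was at 3.86 and 5.12 FPKM in controls and at 1.98, 3.09 and 3.21 FPKM in knockouts, again without overlap. Its log2 difference was -0.70 (standard error 0.22, 95% interval -1.19 to -0.21, unadjusted p = 0.00999, adjusted p = 0.294 from limma). *Smad7* (XLOC_009800, chr18:75367365-75395935), the other inhibitory SMAD, was at 3.97 and 7.51 FPKM in controls and at 2.94, 3.59 and 5.62 FPKM in knockouts. Here the 2 controls differed 1.89-fold from each other, more than the 1.39-fold between the groups, and the log2 difference was -0.48 (95% interval -1.14 to 0.19, adjusted p = 0.663 from limma). *Id1* (XLOC_011636, chr2:152736251-152737410) encodes an inhibitor of helix-loop-helix transcription factors and is a standard readout of BMP signaling. It was at 4.87 and 11.9 FPKM in controls and at 3.71, 3.78 and 8.06 FPKM in knockouts. The controls of *Id1* differed 2.45-fold from each other, more than the 1.56-fold between the groups, and the log2 difference of -0.64 did not pass (95% interval -1.52 to 0.23, adjusted p = 0.651 from limma). Without the higher control value the log2 differences of *Id1* and *Smad7* were -0.01 and -0.02.

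**Figure D2:**
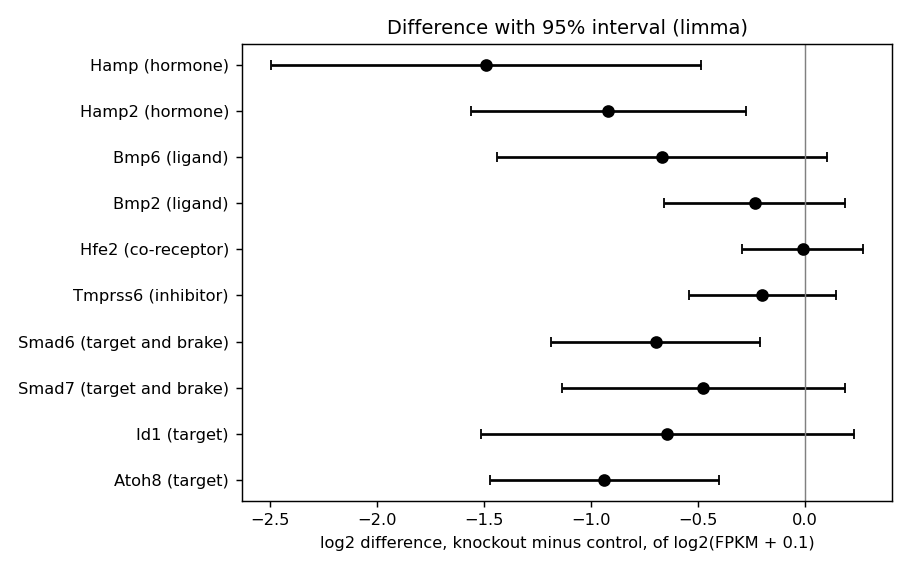
Log2 difference between knockout and control livers (horizontal axis, on log2(FPKM + 0.1)) of each of the 10 genes, with its 95% interval from limma. All 10 points lie below 0, from -1.49 for *Hamp* to -0.01 for *Hfe2*, and the intervals of *Hamp*, *Hamp2*, *Smad6* and *Atoh8* do not reach 0.

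None of the 10 members passed in limma at an adjusted p under 0.05, where 0.205% of all tested genes passed in the lower direction (24 genes) and 0.359% in the higher (42 genes). With the threshold on the unadjusted p, 4 of the 10 were lower (*Hamp*, *Hamp2*, *Smad6* and *Atoh8*) and none was higher, where 3.56% of all tested genes were lower. The same 4 had groups that did not overlap, which held in the lower direction for 10.7% of all tested genes and in the higher for 15.1%. All 10 log2 differences were below 0, against 45.1% of all tested genes, and their median was -0.66, against 0.03. With a robust variance prior in limma the count of 4 was 2, as *Hamp* (unadjusted p = 0.137) and *Hamp2* (unadjusted p = 0.105) were no longer under the threshold. It was 0 without each gene's higher control value and 7 without its highest knockout value. Leaving out the highest knockout value enlarges every decrease by construction, so the count of 7 is not read as support. The members were chosen with earlier results of these data known. They are also not independent of each other, as several respond to the same signal and all come from the same 5 livers. Some fragments counted for *Hamp2* may also stem from *Hamp*. The ordering by size of the difference was *Hamp*, *Atoh8*, *Hamp2*, *Smad6*, *Bmp6*, *Id1*, *Smad7*, *Bmp2*, *Tmprss6* and *Hfe2*, and neighbours in this order had intervals that overlap. The hepcidin genes and *Bmp6* varied most among the knockouts, with SDs on the log2 scale of 1.03, 0.64 and 0.72. *Id1* was close to *Hamp2* at 0.63, while *Hfe2* had 0.14, close to the median gene.

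Around these members, 45 further genes of the BMP pathway were examined by role, of which 36 reached the minimum level. None of the 36 passed in limma, and the median log2 difference was -0.02. At an unadjusted p under 0.05, 3 were lower and 2 were higher, where 3.56% of all tested genes were lower and 6.08% higher. The 2 further targets that could be tested, *Id2* and *Id3*, which encode relatives of ID1, had log2 differences of the same sign as the members. *Id2* was at 104 and 126 FPKM in controls and at 73.3, 87.2 and 95.7 FPKM in knockouts (log2 difference -0.43, 95% interval -0.77 to -0.10, adjusted p = 0.372 from limma). *Id3* was at 41.2 and 86.0 FPKM in controls and at 28.9, 36.7 and 44.1 FPKM in knockouts (log2 difference -0.72, 95% interval -1.34 to -0.11, adjusted p = 0.431 from limma). The groups of *Id2* did not overlap, and those of *Id3* did by 1 value. The controls of *Id3* differed 2.09-fold from each other, more than the 1.65-fold between the groups, and without the higher control value its log2 difference was -0.19, and without the lower one -1.25. *Id4*, below the minimum for a test, was at 0.767 FPKM in both controls and at 0.196, 0.294 and 0.443 FPKM in knockouts.

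Of 7 receptor genes tested, 1 had a log2 difference below 0 and 6 above, where 45.1% of all tested genes lay below 0. None was lower or higher even at an unadjusted p under 0.05, where 3.56% of all tested genes were lower and 6.08% higher. All 7 intervals held 0. The most abundant in this role were *Eng* (endoglin, an endothelial co-receptor), *Bmpr1a* and *Acvr2a* (a type II receptor), at log2 differences of -0.28, 0.22 and 0.16, and *Acvr1* was at 0.23. *Bmpr1a* and *Acvr1* encode the type I receptors through which hepatocytes control hepcidin. Of the genes that pass iron status to the pathway, *Tfr2* (transferrin receptor 2), *Hfe* (the hemochromatosis protein) and *Neo1* (neogenin, which binds hemojuvelin) had log2 differences of 0.03, -0.18 and 0.00. *Smad4*, the common partner of the receptor-activated SMADs, was at -0.03 (95% interval -0.30 to 0.24). *Smad5* and *Smad1*, which encode such SMADs, were at 0.28 and -0.09. *Smad5* was at 6.94 and 8.06 FPKM in controls and at 9.05, 9.09 and 9.18 FPKM in knockouts (unadjusted p = 0.0468, adjusted p = 0.509 from limma), and *Smad9* was at -0.03. Without its lower control value *Smad5* was at 0.17. Of the other ligands, *Gdf2*, which encodes BMP9, was at 4.26 and 4.79 FPKM in controls and at 5.52, 5.68 and 6.26 FPKM in knockouts (log2 difference 0.36, adjusted p = 0.413 from limma). *Gdf15* and *Bmp5*, the next by level, were at 0.16 and 0.28. None of these passed.

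Of the 11 inhibitors that could be tested, 1 had an unadjusted p under 0.05 and was lower. *Fst* encodes follistatin, a secreted protein that binds activins and some BMPs, and it was at 1.35 and 2.67 FPKM in controls and at 0.327, 0.496 and 0.692 FPKM in knockouts. Its groups did not overlap, but the 2 controls differed 1.98-fold from each other and the knockout values spanned 2.12-fold. The log2 difference was -1.77 (standard error 0.34, 95% interval -2.53 to -1.02, adjusted p = 0.059 from limma). The log2 difference of *Fst* was -0.97 with a pseudocount of 1 FPKM. Its adjusted p from limma was 0.0388 with a robust variance prior and 0.0483 without its highest knockout value, but 0.268 when genes below the minimum were kept in the fit and 0.696 without its higher control value. The most abundant inhibitors, *Furin* (a protease that releases hemojuvelin in soluble form), *Ppm1a* (a phosphatase of SMADs) and *Fkbp1a* (which holds type I receptors inactive), had log2 differences of -0.09, -0.13 and 0.02. *Fam132b*, which encodes the erythroid hormone erythroferrone that traps BMPs, was at 0.0222 and 0.10 FPKM in controls and between 0.0238 and 0.0606 FPKM in knockouts.

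**Figure D3:**
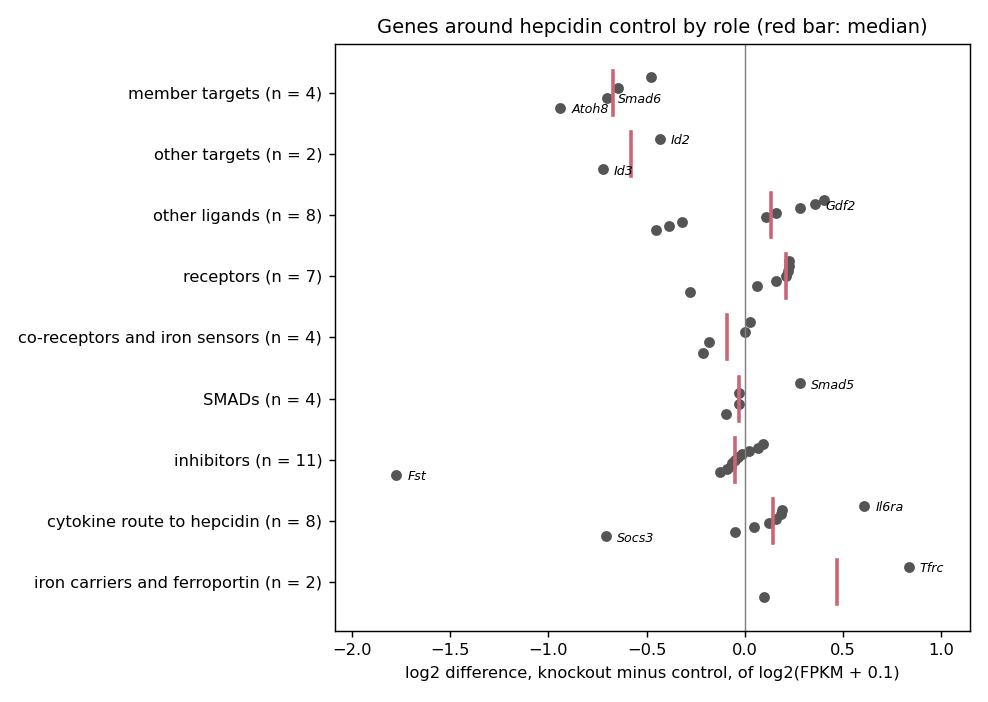
Log2 difference between knockout and control livers (horizontal axis, on log2(FPKM + 0.1)) of every tested gene around hepcidin, in rows by role, with the number tested. Each point is a gene, red bars are medians, and names mark genes with an unadjusted p under 0.05. The 4 targets among the members and the 2 further ones lie below 0, 6 of 7 receptors lie above 0, and *Fst* stands apart below 0 among the inhibitors.

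On the cytokine route to hepcidin, 8 of 11 genes were tested and none passed in limma. *Socs3*, a STAT3-induced brake on cytokine receptors, was at 5.86 and 7.74 FPKM in controls and at 3.39, 3.89 and 5.19 FPKM in knockouts. All of its knockout values were below both controls (log2 difference -0.70, 95% interval -1.14 to -0.27, unadjusted p = 0.00482, adjusted p = 0.213 from limma). *Il6ra*, which encodes the receptor of IL-6, was at 12.0 FPKM in both controls and at 15.2, 15.3 and 26.8 FPKM in knockouts (log2 difference 0.61, 95% interval 0.11 to 1.11, adjusted p = 0.413 from limma). Without the highest knockout value the log2 difference of *Il6ra* was 0.34. *Il6st*, *Jak1* and *Stat3*, which encode gp130, a kinase bound to it and the transcription factor at the end of the route, had log2 differences of 0.18, 0.16 and 0.12. *Creb3l3*, a liver transcription factor that can also raise *Hamp*, was at -0.05. *Il6* itself was at 0.159 FPKM or less in every library, below the minimum for a test.

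Of the genes that hepcidin or iron acts on, *Slc40a1*, which encodes ferroportin, was at 60.1 and 74.7 FPKM in controls and at 67.5, 70.3 and 77.9 FPKM in knockouts. The groups overlapped (log2 difference 0.10, 95% interval -0.20 to 0.40, adjusted p = 0.845 from limma). Hepcidin acts on ferroportin as a protein, which was not measured here. *Tfrc* encodes transferrin receptor 1, whose mRNA is stabilised when cells are short of iron. It was at 3.95 and 5.27 FPKM in controls and at 6.82, 8.18 and 9.94 FPKM in knockouts, with every knockout value above both controls. The log2 difference of *Tfrc* was 0.84 (standard error 0.18, 95% interval 0.43 to 1.24, unadjusted p = 0.00112, adjusted p = 0.108 from limma). Its adjusted p from limma was 0.0467 with a robust variance prior, between 0.096 and 0.341 under the 6 other settings, and between 0.0922 and 0.762 when single values were left out.

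Fewer cells of a type and less RNA per cell cannot be told apart in these bulk samples, so the markers of the cells that make these mRNAs are given beside them. Of 10 hepatocyte markers, 7 lay above 0 and 3 below, none passed, and the median log2 difference was 0.20. *Hamp*, *Hfe2* and *Tmprss6* are made by the same cells. Of 12 markers of sinusoidal endothelial cells, the source of BMP6 and BMP2, 8 lay below 0, none passed and the median was -0.06. None had groups that did not overlap, against 10.7% of all tested genes in the lower direction and 15.1% in the higher. The summed level of these 12 markers was 199 FPKM in controls and 193 FPKM in knockouts, as means of the groups. Sums of the lowest and of the highest value of each gene were 190 and 208 FPKM in controls and 152 and 222 FPKM in knockouts, and sums per mouse cannot be formed. *Clec4g* and *Fcgr2b*, the most abundant of these markers, had log2 differences of -0.08 and -0.03. *Lyve1*, the lowest of the 12, was at -0.45 (95% interval -1.05 to 0.14).

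Of 11 Kupffer cell markers, all lay above 0 with a median of 0.42, none passed, and 6 had an unadjusted p under 0.05, where 6.08% of all tested genes were higher at this threshold. Groups did not overlap for 8 of the 11, all in the higher direction, against 15.1% of all tested genes. The summed level of the 11 markers was 300.5 FPKM in controls and 405 FPKM in knockouts. Sums of the lowest and of the highest values were 282 and 319 FPKM in controls and 351 and 492 FPKM in knockouts. *Cd5l* and *C1qc*, which encode a secreted macrophage protein and a complement component, were the most abundant, and *Cd5l* was at 54.2 and 58.1 FPKM in controls and at 71.8, 74.5 and 95.7 FPKM in knockouts. Of 10 stellate cell markers, none passed, 4 lay above 0 and the median was -0.08. *Dcn* and *Colec11*, the most abundant, were at 0.35 and -0.10. At an unadjusted p under 0.05, 2 of the 10 were higher and 0 lower. Groups did not overlap for 3 in the lower direction and 2 in the higher, against 10.7% and 15.1% of all tested genes. Of 3 neutrophil markers that could be tested, *S100a9* passed (log2 difference 1.59, adjusted p = 0.0181 from limma) and *S100a8* was at 1.46 (adjusted p = 0.059 from limma). The other, *Retnlg*, was at 0.29 with groups that overlapped (adjusted p = 0.817 from limma). The granule genes *Mpo*, *Elane* and *Camp* were at 0.181 FPKM or less in every library. Of 5 cholangiocyte markers tested, *Tff3* passed (log2 difference 2.40, adjusted p = 0.0435 from limma) and the other 4 did not, *Spp1* at 0.22 among them. Of 2 T and B cell markers tested (*Cd4* and *Cd79a*, at -0.21 and -0.28) and 2 red cell precursor markers tested (*Alas2* and *Hbb-bt*, at -0.25 and 0.35), none passed. The part of these cells in the levels of the hepcidin and BMP-SMAD genes was not tested.

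**Figure D4:**
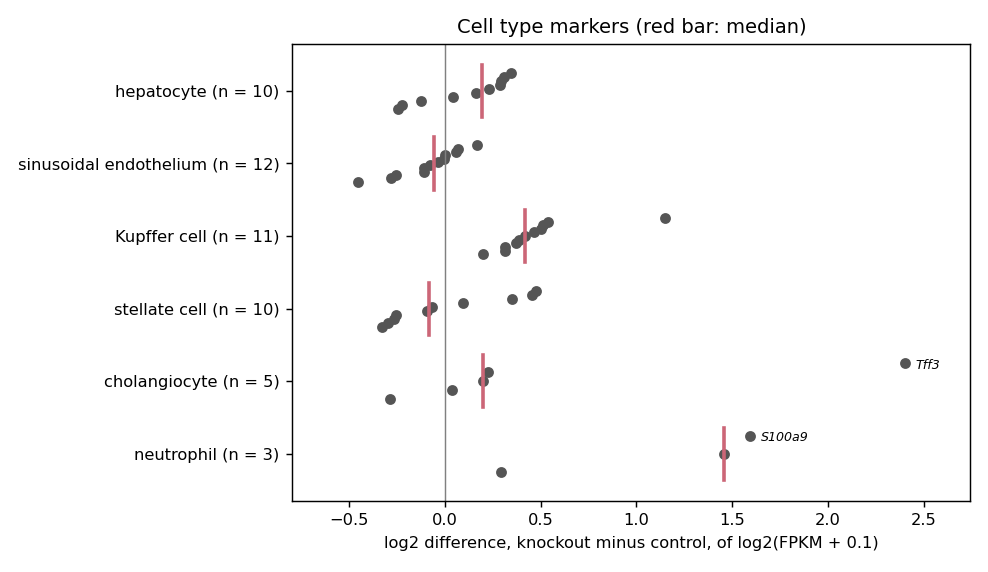
Log2 difference between knockout and control livers (horizontal axis, on log2(FPKM + 0.1)) of tested markers of 6 cell types, in rows with the number tested. Each point is a gene, red bars are medians, and names mark genes with an adjusted p under 0.05 from limma. Sinusoidal endothelial markers have a median of -0.06 and Kupffer cell markers one of 0.42.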

How the data were processed

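The authors sequenced paired ends of liver RNA from 2 control and 3 knockout mice. Per the submitters' notes and the methods, FastQC 0.11.5 was used for quality, TopHat2 2.1.1 for mapping to mm10, SAMtools 1.5 to keep reads that mapped uniquely and Cufflinks 2.2.1, with RefSeq genes, for FPKM. The deposited table holds FPKM, whose depth is unknown as it gives no counts. Its columns of the authors' own fold changes, p-values and calls were not used. Genes that averaged 0.5 FPKM or more were compared by lmFit and eBayes with a trend (limma 3.58.1, R 4.3.3) on log2(FPKM + 0.1), two-sided, after a test on simulated data. A log2 difference on this scale understates changes of low genes. Shares of a control level are 2 to the power of that difference. Values within a group are sorted per gene, so steps that need a mouse's own values (scaling between libraries, pairing) were not run, and leaving out a value means that each list gene lost its own lowest, middle or highest value and every other gene 1 drawn at random.

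The members and lists were chosen with earlier results of these data known. Named genes are the 10 members, *Lifr*, the 3 most abundant of each role and the 2 most abundant markers of each cell type. Genes of the BMP pathway, cytokine route and iron lists with an unadjusted p under 0.05 are named too. Markers were not named by that threshold, and some under it are unnamed. Genes named beyond these rules (*Id4*, *Smad9*, *Acvr1*, *Fam132b*, *Il6*, *Stat3*, *Lyve1*, *Retnlg*, *Mpo*, *Elane* and *Camp*) were chosen after their values were seen. One gene of the pathway list is not reported here. Promoters are from RefSeq and transcripts from GENCODE M21, both on GRCm38, the assembly of mm10. The alternatives were other pseudocounts (1 and 0.01 FPKM), other minimums, eBayes without a trend or with a robust prior, and removal of the median shift.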

Additional observations from a re-analysis of the deposited data

How the results depend on the processing

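*Hamp* kept a log2 difference below 0 under all 7 other settings (-1.52 to -1.49, adjusted p 0.242 to 0.665 from limma) and when single values were left out (-2.06 to -1.06). It passed only without its highest knockout value, at -2.06 (adjusted p = 0.00485 from limma). The value left out is each gene's own and need not come from 1 mouse. For *Hamp*, *Hamp2* and *Fst*, leaving out the highest knockout value enlarges the decrease by construction, so a pass there is not read as support. The count of members past the adjusted threshold was 0 under the 7 settings and 0 to 2 in leave-one-out. The count of members lower at an unadjusted p under 0.05 was 2 with a robust prior and 0 to 7 in leave-one-out, against 4. Of the 59 genes around them, 46 reached the minimum level and were tested. Of these, 2 passed with a robust prior (*Fst* and *Tfrc*) and 0 to 1 in leave-one-out, against 0. The number with an unadjusted p under 0.05 was 5 to 8 in leave-one-out, against 8 (4 lower and 4 higher). The count of 5 came without the higher control value, which leaves 1 control. With no value left out, 3.56% of all tested genes were lower and 6.08% higher at this threshold. *Hfe2* lay between -0.089 and 0.043 in leave-one-out and reversed to 0.043 without its higher control value, 0.042 without its lowest knockout value and 0.012 without its middle one. No paired analysis was possible because the columns carry no mouse, so replicate numbers cannot be applied. The unknown depth and 2 controls limit every value of *Id1*, *Smad7* and other low genes.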
